A study of Mus musculus with 6 samples.

Results

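The genes described here are 37 mouse genes of homologous recombination and the neighbouring DNA repair and damage signalling pathways. They were chosen by name, with earlier results of these data known, of 51912 gene IDs in the deposited table. All 37 were found in it, and 30 reached a mean of 1 TPM over the 6 libraries and entered the test. TPM is the unit the table names, a read count scaled by gene length and library depth. The 7 genes below that mean were Brca2, Palb2, Rad51c, Lig4, Fancg, Pms2 and Atr, and they are given by their values. Just inside the filter lay Xpa at 1.0 TPM and Lig3 at 1.02 TPM, and just outside it Lig4 at 0.984 TPM and Rad51c at 0.934 TPM.

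RNA from organoids of mouse bladder tumors was sequenced in bulk, in 3 libraries after treatment with SRT1720 and in 3 libraries given vehicle. SRT1720 is a compound known as a SIRT1 activator, SIRT1 being an NAD-dependent deacetylase, and all 6 libraries carry the strain label C57BL/6. An organoid is a 3-dimensional culture of the epithelial tumor cells, which here have no host tissue around them. The dose, the treatment time, the age of the mice, the way the tumors arose and whether replicates are separate cultures or animals have no statement in the labels. The p-values below therefore reflect how far these libraries spread, which may be technical.

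Cells repair double-strand breaks by 2 main routes. In homologous recombination the break ends are trimmed to single strands, which BRCA1, PALB2 and BRCA2 prepare for pairing with the sister chromatid, and that chromatid is copied, so that the route works mainly in S and G2 phase. Non-homologous end joining binds the ends with the KU70 and KU80 proteins and ligates them in any phase of the cycle. The Fanconi anemia pathway unhooks crosslinks between strands and hands the break to recombination, while base excision, mismatch and nucleotide excision repair deal with damage on 1 strand, and the kinases ATM, ATR, CHEK1 and CHEK2 carry the damage signal to the cell cycle. Many repair genes are transcribed most in dividing cells.

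Whole read counts could be recovered from the deposited values and came to 18157526 to 22719034 reads per library. SRT1720 1 and Vehicle 2 stand apart by their low Krt5, a keratin of basal urothelium, at 16.4 and 9.61 TPM, where the remaining 4 libraries held 425 to 1120 TPM. Basal markers summed to between 72.9 and 2004 TPM with SRT1720 and between 54.3 and 1178 TPM with vehicle, and luminal markers to between 116 and 419 TPM and between 115 and 264 TPM. Of 9 fibroblast, 6 endothelial and 5 smooth muscle markers, 0 reached a mean of 1 TPM, and 2 of 10 leukocyte markers did, with the leukocyte sum between 1.04 and 11.7 TPM with SRT1720 and between 1.99 and 16.1 TPM with vehicle. The part of these markers in the results below was not tested. SRT1720 3 and Vehicle 3 are low over chromosome 3, with median deviations of −0.39 and −0.41 (log2) against 0.14 to 0.26 elsewhere, and 0 of the 37 genes lie there.

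No repair gene of the 37 passed the test. With limma and Benjamini-Hochberg adjustment, 0 of the 30 tested repair genes and 0% of the 9287 genes had an adjusted p under 0.05, and limma voom on the recovered reads likewise called 0 genes. At an unadjusted p under 0.05, 1153 genes were counted over the whole table. Of the repair genes 4 of 30 (13.3%) stood at that level, all with higher values under SRT1720, where 7.86% of all tested genes were higher and 4.55% lower. These 4 were Xrcc5, Exo1, Rad51ap1 and Xrcc1. In 5 of 30 repair genes (16.7%), these 4 and Ercc1, every SRT1720 library lay above every Vehicle library, against 12.1% of all tested genes, and in 0 of 30 every SRT1720 library lay below, against 7.75%. Over 30 genes these shares differ from the background by a few genes at most, and nothing is read from them.

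The sign of the differences was less evenly divided than over all genes. The repair genes were chosen with earlier results of these data known, and all are read over the same libraries. Their signs are therefore not separate observations, and no conclusion is drawn from the share above 0. A log2 fold change above 0 was found in 27 of 30 repair genes (90.0%), against 54.8% of all tested genes, and the exceptions were Xrcc3, Prkdc and Lig3, all 3 near 0. The median log2 fold change, SRT1720 minus Vehicle on the log2(TPM + 1) scale, was 0.14 in the repair genes and 0.04 over all genes. That scale understates the change of low genes. The repair genes ranged from −0.03 for Xrcc3 to 0.90 for Xrcc5, and the 95% intervals of 26 of 30 contained 0. With median-of-ratios scaling the count above 0 was 24 of 30, against 49.5% of all genes. Without Vehicle 1 it was 20 of 29, against 55.6%, and 23 of 30 were above 0 when SRT1720 1 and Vehicle 2 were both left out, against 51.6%. In bulk RNA, fewer cells that express a gene and less of its RNA per cell cannot be told apart.

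**Figure D1:**
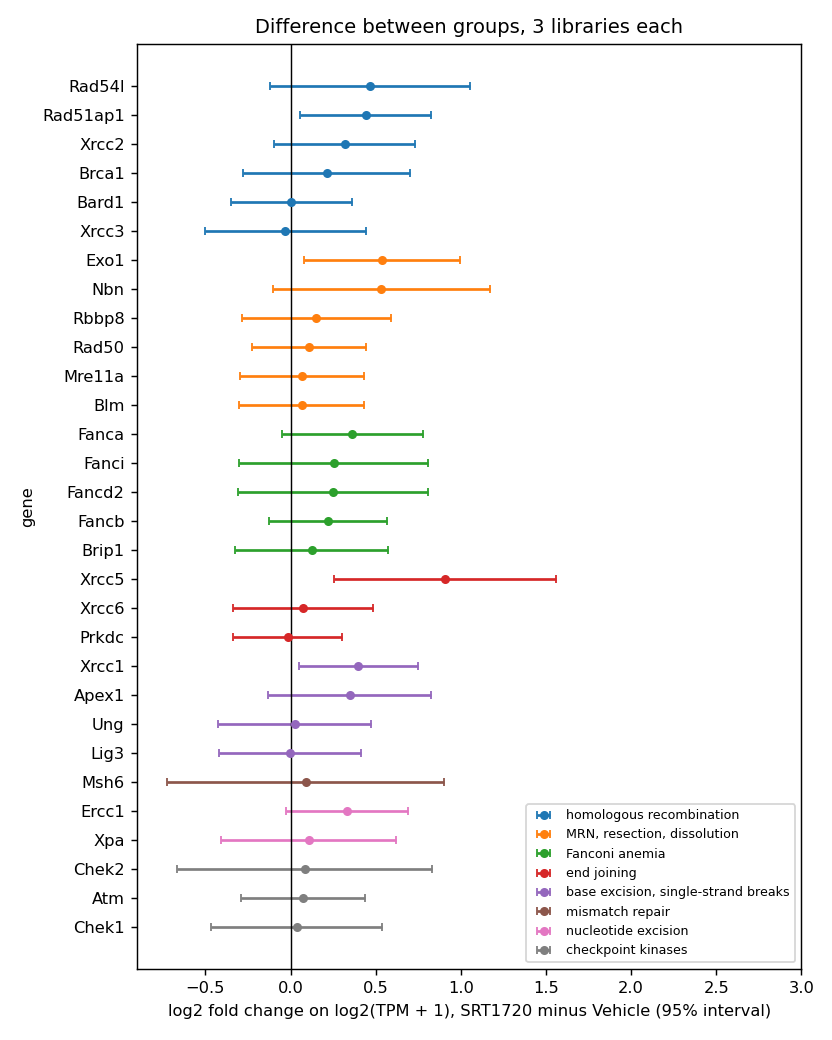
Log2 fold change of each of the 30 tested repair genes (x axis, SRT1720 minus Vehicle on log2(TPM + 1)), with points for the limma estimate, bars for its 95% interval and colours for the repair route. 27 points lie to the right of 0, and 4 intervals, those of Xrcc5, Exo1, Rad51ap1 and Xrcc1, do not reach 0.

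For the repair genes the Vehicle libraries did not lie together. Each gene's deviation from its own mean over the 6 libraries had a median, over the 30 repair genes, of 0.08, 0.15 and 0.06 in SRT1720 1, 2 and 3 and of −0.23, −0.23 and 0.08 in Vehicle 1, 2 and 3 (log2). Vehicle 1 and Vehicle 2 were thus low, and Vehicle 3 lay at the level of the treated libraries. The lowest library was Vehicle 1 for 12 of the 30 genes and Vehicle 2 for 13, while over all tested genes these libraries were lowest in 13.5% and 23.4%. The highest library was Vehicle 3 for 8 genes, Brip1, Fanci, Bard1, Xrcc3, Blm, Rad50, Prkdc and Chek2. It was SRT1720 1 for another 8 genes and SRT1720 2 for 7. The highest library was not counted over all tested genes.

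Leaving out 1 library uses the same values again. Vehicle 3 had been singled out by its high levels in these genes, so the counts without it are no separate result. Without Vehicle 3, 17 of 30 repair genes (56.7%) did not overlap between groups, all higher with SRT1720, where 17.3% of all tested genes were higher without overlap in the same 5 libraries. Without Vehicle 1 the count was 6 of 29 (20.7%, against 19.5% of all genes), and without Vehicle 2 it was 6 of 30 (against 17.4%). Without Vehicle 3 the median log2 fold change was 0.30, against 0.03 over all genes, and 7 of 30 genes were at an unadjusted p under 0.05, all higher, where 6.4% of all tested genes were higher at that level.

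**Figure D2:**
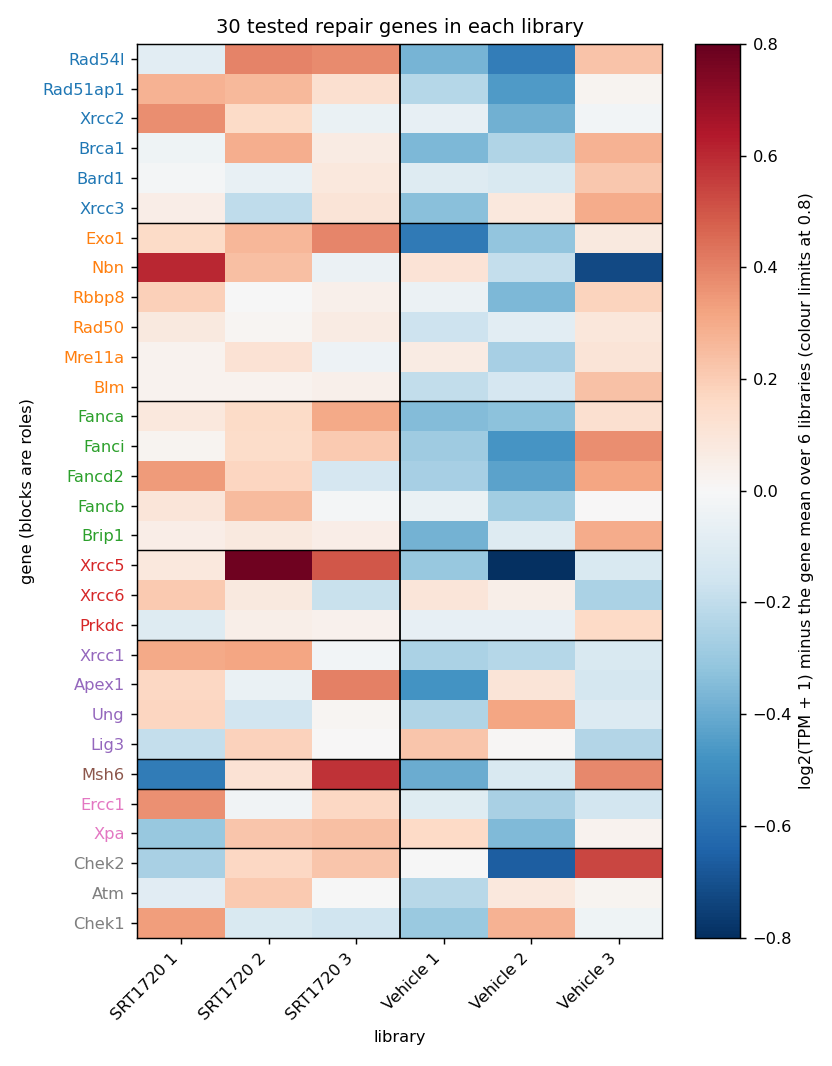
Deviation of each tested repair gene from its own mean over 6 libraries (colour, log2(TPM + 1), limits at 0.8), with libraries as columns and genes as rows in blocks by repair route. Vehicle 1 and Vehicle 2 are mostly blue, the low end, whereas Vehicle 3 and SRT1720 1 each hold the highest value of 8 of the 30 genes.

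Cell cycle genes gave a different order of libraries. Both cell cycle lists were also chosen with earlier results of these data known. The median deviation of 39 S phase and replication genes was 0.34, 0.22 and 0.13 in SRT1720 1, 2 and 3 and −0.43, −0.12 and −0.11 in Vehicle 1, 2 and 3, so all Vehicle libraries lay below all treated ones. For 20 genes of mitosis and G2/M it was −0.12, 0.43 and 0.23 with SRT1720 and 0.27, −0.76 and −0.07 with vehicle, and the groups overlapped. The S phase genes had a median log2 fold change of 0.42 with 37 of 39 above 0. At an unadjusted p under 0.05 stood 16 of 39. The mitotic genes had a median of 0.37 with 20 of 20 above 0, and 2 of 20 stood at that level. These were all higher, where 7.86% of all tested genes were higher at that level and 54.8% were above 0. Rrm2, a subunit of the enzyme that makes deoxynucleotides, was at 44.5, 45.7 and 33.3 TPM with SRT1720 and at 16.1, 15.1 and 14.3 TPM with vehicle (limma with Benjamini-Hochberg adjustment, adjusted p = 0.155). The proliferation marker Mki67 was at 11.3, 31.1 and 32.6 TPM against 20.6, 8.80 and 19.2 TPM. The median of neither list was above 0 in Vehicle 3, where that of the repair genes was. Vehicle 1 was lowest for 30 of 39 S phase genes, against 13.5% of all tested genes. Vehicle 2 was lowest for 18 of 20 mitotic genes, against 23.4%. These are the 2 libraries in which the repair genes were low. The part of cell cycle in the repair genes' values was not tested.

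**Figure D3:**
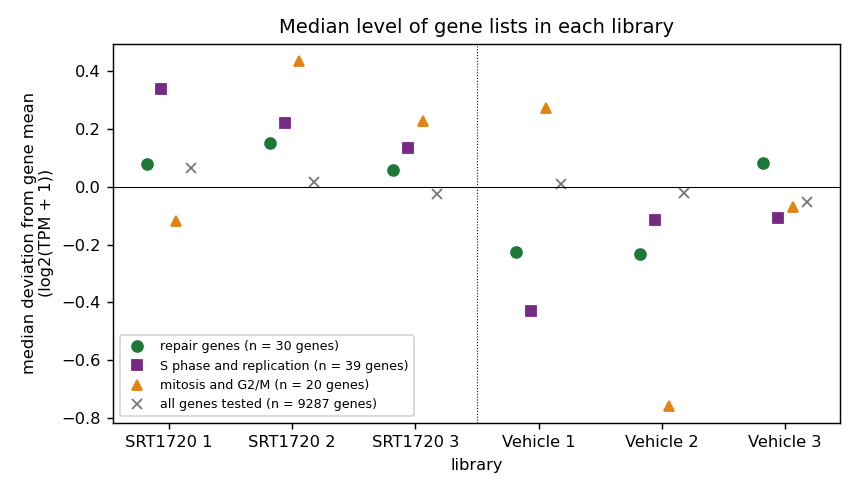
Median deviation from the gene mean (y axis, log2(TPM + 1)) in each of the 6 libraries (x axis) for the repair genes, the S phase genes, the mitotic genes and all tested genes. The repair gene points are at −0.23 in Vehicle 1 and Vehicle 2 and at 0.08 in Vehicle 3, while the S phase points are below 0 in all 3 Vehicle libraries.

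Promoter sequences are shown because E2F sites are common before the starts of S phase genes. RefSeq promoter windows on GRCm38.p6, from 250 bases before to 50 bases after the start, were found for 30 of the 37 genes, without Exo1, Nbn, Rad50, Fancd2, Prkdc, Xrcc2 and Rbbp8. A gene can have several windows, and the reference set holds 32851 windows of 27025 genes. Shares of the repair genes therefore count genes with a match in any window, while the shares beside them count windows. The E2F letters TTTGGCGC, TTTCGCGC, TTTCCCGC or TTTGCCGC, searched on both strands, were in 7 of 30 genes (23.3%), against 2.3% of windows. These were Bard1, Brca2, Chek2, Fancg, Msh6, Rad51c and Xrcc6. The CCAAT box, CCAAT on either strand, was in 19 of 30 genes (63.3%) against 37.4% of windows. The cell cycle element TTTGAA was in 1 of 30 genes (3.3%), Bard1, against 17.9% of windows. Of the 23 tested genes with a window, the 4 with E2F letters had a median log2 fold change of 0.08 and those without one of 0.21. The 17 with a CCAAT box had a median of 0.12 and those without one of 0.03, and neither difference was tested. A match is a description of letters and says nothing about binding.

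Shown are the 250 bases before the start of the 3 tested genes with E2F letters there, and of Xrcc5, the gene with the smallest p, which has none. Capitals mark the E2F letters or their reverse complement GCGGGAAA, and the CCAAT box, here as ATTGG. The windows are chr15:82016119-82016368 (plus strand) for Xrcc6, chr5:110839733-110839982 (plus) for Chek2, chr1:71102973-71103222 (minus) for Bard1 and chr1:72307171-72307420 (plus) for Xrcc5. Xrcc6 holds GCGGGAAA 46 bases before the start, Chek2 holds it 152 bases before, and Bard1 holds TTTCCCGC 209 bases before. Their log2 fold changes were 0.07, 0.08 and 0.01.
Xrcc6: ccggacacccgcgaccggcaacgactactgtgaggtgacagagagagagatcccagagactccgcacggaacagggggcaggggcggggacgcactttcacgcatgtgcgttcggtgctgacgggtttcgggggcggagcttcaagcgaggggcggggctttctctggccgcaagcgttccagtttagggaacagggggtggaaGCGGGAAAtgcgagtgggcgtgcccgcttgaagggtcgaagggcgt
Chek2: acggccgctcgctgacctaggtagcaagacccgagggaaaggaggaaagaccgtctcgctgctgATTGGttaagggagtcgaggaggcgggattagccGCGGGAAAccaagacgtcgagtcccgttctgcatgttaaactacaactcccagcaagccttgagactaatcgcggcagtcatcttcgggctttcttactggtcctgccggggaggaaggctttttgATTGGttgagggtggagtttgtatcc
Bard1: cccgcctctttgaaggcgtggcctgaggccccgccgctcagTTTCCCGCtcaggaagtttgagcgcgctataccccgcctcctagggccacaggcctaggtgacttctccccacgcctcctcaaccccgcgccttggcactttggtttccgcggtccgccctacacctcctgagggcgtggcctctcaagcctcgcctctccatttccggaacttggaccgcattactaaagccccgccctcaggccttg
Xrcc5: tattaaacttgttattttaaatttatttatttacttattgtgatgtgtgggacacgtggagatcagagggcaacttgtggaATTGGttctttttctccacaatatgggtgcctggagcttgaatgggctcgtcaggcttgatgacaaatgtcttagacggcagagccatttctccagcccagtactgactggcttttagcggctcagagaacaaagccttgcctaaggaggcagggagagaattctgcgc

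The core of homologous recombination had 6 of 9 genes tested, 5 of them above 0, with a median log2 fold change of 0.27. Rad51ap1, whose protein helps pair the broken strand with its template, was at 2.23, 2.19 and 1.91 TPM with SRT1720 and at 1.27, 0.946 and 1.71 TPM with vehicle. The groups did not overlap, and Vehicle 3 lay closest to the treated libraries. Its log2 fold change was 0.44 (SE 0.16, unadjusted p = 0.0301, adjusted p = 0.361 by limma with Benjamini-Hochberg adjustment). Rad51ap1 lies on chromosome 6 from 126923050 to 126939587 (GRCm38).

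Rad54l, a motor protein that drives strand exchange, was at 1.59, 2.62 and 2.57 TPM against 1.116, 0.872 and 2.20 TPM. Here Vehicle 3 lay above SRT1720 1, and the log2 fold change was 0.47 (SE 0.25, adjusted p = 0.492 by limma). Rad54l shares 1184 exon bases with Lrrc41 on the opposite strand. Since the labels state no strand for the libraries, reads of the pair cannot be told apart. For 16 of the 37 genes, Rad54l among them, the largest exon overlap is with a gene on the opposite strand, and the same limit holds. Other large overlaps are those of Lig3 (1826 bases, with Rffl), Fanci (921, with Polg), Fanca (920, with Zfp276) and Apex1. Xrcc2, which acts in strand pairing, was at 1.84, 1.44 and 1.117 TPM against 1.10, 0.678 and 1.16 TPM, a log2 fold change of 0.32 (SE 0.17). Xrcc3, from the same family, was at 1.599 ± 0.29 against 1.69 ± 0.58 TPM (SD, n = 3).

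Brca1, the tumor suppressor that promotes resection and recruits PALB2, was at 2.68, 3.62 and 2.94 TPM with SRT1720 and at 1.93, 2.20 and 3.58 TPM with vehicle. Vehicle 3 lay close to SRT1720 2, the highest treated library, and the log2 fold change was 0.21 (SE 0.21, 95% interval −0.28 to 0.70, adjusted p = 0.732 by limma). Brca1 lies on chromosome 11 from 101488764 to 101551955. Bard1, its binding partner in a ubiquitin ligase, was at 3.24, 3.11 and 3.53 TPM against 2.98, 2.94 and 3.97 TPM, with a log2 fold change of 0.01 and an interval from −0.35 to 0.36.

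Brca2, the tumor suppressor that acts after resection, stayed below the filter, yet its groups did not overlap. It was at 0.722, 0.469 and 0.459 TPM with SRT1720 and at 0.390, 0.241 and 0.263 TPM with vehicle (exact two-sided permutation p = 0.1, the smallest that 3 libraries against 3 allow). Between 265 and 909 reads stood behind each value. In a fit of the recovered reads that keeps all 37 genes, chosen after seeing the data, limma voom gave Brca2 a log2 fold change of 0.87 (SE 0.30, unadjusted p = 0.0231, adjusted p = 0.424). Palb2, which bridges BRCA1 and BRCA2, was at 0.580 ± 0.08 against 0.449 ± 0.13 TPM, and Rad51c, of the family of Xrcc2 and Xrcc3, at 0.936 ± 0.25 against 0.932 ± 0.11 TPM.

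Of 13 further core genes listed, 9 were tested and 7 were above 0, with a median log2 fold change of 0.07. Helq, a helicase of recombination and crosslink repair, was at 1.81, 1.49 and 1.27 TPM with SRT1720 and at 0.662, 1.17 and 0.927 TPM with vehicle. The groups did not overlap, and the adjusted p was 0.389 by limma. Here and below, up to 2 further genes of a role are named for the smallest unadjusted p. Their lack of overlap is therefore no separate result. Of the 9 tested genes, 3 were higher without overlap, beside 12.1% of all tested genes.

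**Figure D4:**
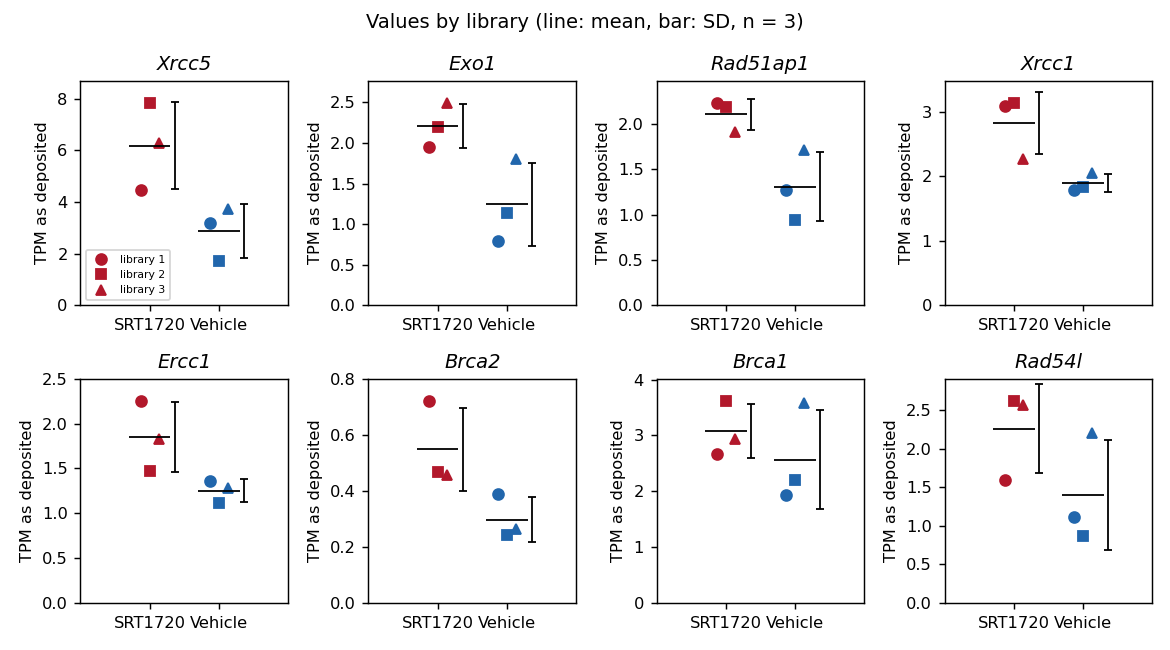
TPM as deposited (y axes, from 0) of 8 repair genes in the 3 SRT1720 and 3 Vehicle libraries, with marker shapes for the library number, lines for the means and bars for the SD. Xrcc5, Exo1, Rad51ap1, Xrcc1, Ercc1 and Brca2 show no overlap between groups, while in Brca1 and Rad54l the Vehicle 3 library lies among the treated ones.

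The MRN complex, resection and dissolution genes were all tested, and 6 of 6 were above 0, with a median log2 fold change of 0.13. Exo1, the nuclease of long-range resection, was at 1.95, 2.19 and 2.49 TPM with SRT1720 and at 0.796, 1.13 and 1.80 TPM with vehicle. The groups did not overlap, with Vehicle 3 just below SRT1720 1. Its log2 fold change was 0.54 (SE 0.19, unadjusted p = 0.0277, adjusted p = 0.355 by limma with Benjamini-Hochberg adjustment). Exo1 lies on chromosome 1 from 175880581 to 175913489.

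MRN, which senses broken ends, has 3 subunits. Nbn, which links the complex to ATM, was at 6.87, 5.13 and 4.02 TPM against 4.59, 3.55 and 2.14 TPM, a log2 fold change of 0.53 (SE 0.27, adjusted p = 0.475 by limma). Nbn was lowest in Vehicle 3, unlike most of the repair genes, and the groups overlapped through SRT1720 3 and Vehicle 1. Rad50, the ATPase of the complex, was at 5.49 ± 0.14 against 5.04 ± 0.55 TPM, and Mre11a, its nuclease, at 3.39 ± 0.25 against 3.22 ± 0.57 TPM. The intervals of Rad50 and Mre11a ran from −0.23 to 0.44 and from −0.30 to 0.43, and differences between subunits were not tested.

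Rbbp8 encodes CtIP, which starts resection with MRN, and was at 6.90 ± 0.58 TPM against 6.18 ± 1.31 TPM. Blm, the helicase that dissolves joined chromatids, stayed within 1.76 to 1.78 TPM over the SRT1720 libraries and ran from 1.36 to 2.18 TPM over the Vehicle libraries. Among 17 further genes of this group 9 were tested, 7 were above 0 and the median log2 fold change was 0.33. Gen1, a nuclease that cuts Holliday junctions, was at 1.80, 1.24 and 1.36 TPM against 0.379, 0.492 and 0.873 TPM (adjusted p = 0.292 by limma). Rpa1, the large subunit of the single-strand binding protein, was at 8.05 ± 0.62 against 5.66 ± 0.54 TPM (adjusted p = 0.345 by limma), and in both genes the groups did not overlap. Among the 9 tested, 4 were higher without overlap, beside 12.1% of all tested genes.

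In the Fanconi anemia pathway 5 of 6 genes were tested and 5 of 5 were above 0, with a median log2 fold change of 0.25 and overlapping groups in each. Fanca, a scaffold of the core ubiquitin ligase, was at 1.81, 1.95 and 2.27 TPM against 1.08, 1.11 and 1.90 TPM. Vehicle 3 lay above SRT1720 1, and the log2 fold change was 0.36 (SE 0.17, adjusted p = 0.458 by limma). Fancb, another core subunit, was at 1.58 ± 0.24 against 1.21 ± 0.22 TPM. Vehicle 3 was also the highest Vehicle library for the ligase's own targets. Fancd2 was at 2.86, 2.42 and 1.77 TPM against 1.53, 1.27 and 2.78 TPM.

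Fanci, the partner of FANCD2, was at 1.16, 1.36 and 1.46 TPM with SRT1720 and at 0.746, 0.534 and 1.76 TPM with vehicle. Without Vehicle 3 the log2 fold change of Fanci was 0.51 in place of 0.25, and that of Fanca was 0.52. Without Vehicle 1 they were 0.18 for Fanci and 0.28 for Fanca, and without Vehicle 2 they were 0.08 and 0.29. Brip1, a helicase that binds BRCA1, was at 2.14, 2.20 and 2.15 TPM against 1.33, 1.82 and 2.71 TPM. Its Vehicle libraries thus lay on both sides of the treated ones. Fancg, a core subunit below the filter, was at 0.765 ± 0.16 against 0.518 ± 0.22 TPM.

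Of 13 further Fanconi genes 8 were tested, 4 above 0 and 4 below. Faap24, a DNA-binding partner of FANCM, was at 2.83, 2.597 and 2.07 TPM against 1.33, 0.805 and 0.756 TPM, with a log2 fold change of 0.84 (SE 0.17, adjusted p = 0.233 by limma, the smallest of all repair genes listed). Fancm, the translocase that recruits the core complex, was below the filter at 0.906, 0.721 and 0.545 TPM against 0.192, 0.293 and 0.329 TPM. Usp1, which removes ubiquitin from FANCD2, was at 13.1 ± 1.198 against 8.69 ± 2.21 TPM (adjusted p = 0.363 by limma). The groups did not overlap in any of these 3 genes. Faap24 and Usp1 are named for their small p, so this is no separate result. Of the 8 tested genes, 4 were higher without overlap, beside 12.1% of all tested genes.

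Among the end joining genes Xrcc5 had the largest difference of all 30 repair genes. Xrcc5 encodes KU80 and lies on chromosome 1 from 72307421 to 72394952. It was at 4.45, 7.82 and 6.27 TPM with SRT1720 and at 3.17, 1.70 and 3.72 TPM with vehicle, from 205 to 1126 reads a library. All treated libraries were above all Vehicle libraries, with means of 6.18 ± 1.68 and 2.87 ± 1.05 TPM (SD, n = 3, exact two-sided permutation p = 0.1). The log2 fold change was 0.90 (SE 0.27, 95% interval 0.25 to 1.56, unadjusted p = 0.0137, adjusted p = 0.328 by limma with Benjamini-Hochberg adjustment).

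Xrcc6, which encodes KU70, the partner that forms the ring around DNA ends with KU80, was tested too. It was at 4.58, 4.08 and 3.26 TPM against 4.15, 3.97 and 3.05 TPM, with a log2 fold change of 0.07 and an interval from −0.34 to 0.48. Prkdc, the kinase that KU recruits, was at 1.116 ± 0.12 against 1.14 ± 0.20 TPM, with an interval from −0.34 to 0.30. The difference between Xrcc5 and its partners was not tested. Lig4, the ligase of the route, was at 1.03 ± 0.11 against 0.939 ± 0.09 TPM below the filter, and of 8 further genes 2 were tested, the gap-filling polymerases Poll, at 2.26 ± 0.27 against 1.75 ± 0.32 TPM, and Polm, at 1.21 ± 0.13 against 1.21 ± 0.10 TPM.

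Base excision and single-strand break repair had 4 of 4 genes tested and 3 above 0. Xrcc1, the scaffold of single-strand break repair, was at 3.09, 3.13 and 2.27 TPM with SRT1720 and at 1.79, 1.84 and 2.05 TPM with vehicle. The groups did not overlap, and the log2 fold change was 0.40 (SE 0.15, unadjusted p = 0.0311, adjusted p = 0.361 by limma with Benjamini-Hochberg adjustment). Xrcc1 lies on chromosome 7 from 24546289 to 24573440. Lig3, the ligase that XRCC1 stabilises, was at 1.01 ± 0.26 against 1.02 ± 0.32 TPM.

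Apex1, the endonuclease that cuts at lost bases, was at 2.17, 1.73 and 2.74 TPM against 1.03, 2.03 and 1.56 TPM. Its log2 fold change was 0.35 (SE 0.20). Of its 1422 merged exon bases, 877 are shared with Pip4p1 on the opposite strand, a gene with a mean of 2.21 TPM. Reads of Apex1 and Pip4p1 there cannot be told apart. Ung, which removes uracil, was at 1.83 ± 0.32 against 1.81 ± 0.59 TPM. Of 19 further genes 11 were tested and 10 were above 0, with a median log2 fold change of 0.15. Lig1, the replicative ligase, was at 6.85 ± 0.12 against 4.78 ± 1.32 TPM, without overlap and with an adjusted p of 0.398 by limma. Parp1, the strand break sensor, was at 8.97 ± 0.83 against 8.18 ± 1.09 TPM.

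In mismatch repair 1 of 2 genes was tested. Msh6, a subunit of a mismatch recognition complex, was at 11.1, 18.4 and 25.6 TPM with SRT1720 and at 12.6, 15.4 and 22.3 TPM with vehicle. Within each group the libraries spanned far more than the difference between the means, and the log2 fold change was 0.09 (SE 0.34, interval −0.72 to 0.90). Pms2, a subunit of the nuclease that acts after recognition, stayed below the filter and was at 0.532 ± 0.07 against 0.419 ± 0.10 TPM.

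In nucleotide excision repair both genes were tested. Ercc1, the partner of the XPF nuclease, was at 2.25, 1.47 and 1.83 TPM with SRT1720 and at 1.36, 1.11 and 1.28 TPM with vehicle. The groups did not overlap, and the log2 fold change was 0.33 (SE 0.15, interval −0.02 to 0.69, unadjusted p = 0.0635, adjusted p = 0.431 by limma). Ercc1 lies on chromosome 7 from 19344778 to 19356524 and shares 106 exon bases with Cd3eap on the opposite strand. Xpa, the damage verifier, rests on 79 to 225 reads a library and was at 1.08 ± 0.42 against 0.927 ± 0.34 TPM.

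Of 19 further nucleotide excision genes 14 were tested, 11 above 0. Gtf2h3, a subunit of the TFIIH helicase complex, was at 2.18 ± 0.36 against 1.42 ± 0.18 TPM, and the subunit Gtf2h1 at 7.57 ± 1.115 against 5.68 ± 0.83 TPM. The damage sensor Xpc was at 1.44 ± 0.11 against 1.87 ± 0.53 TPM, a log2 fold change of −0.22 (adjusted p = 0.630 by limma).

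The checkpoint kinases had a median log2 fold change of 0.08, with 3 of 4 tested and overlapping groups in each. Chek2, the kinase downstream of ATM, spanned more than the treatment difference within each group, at 2.79, 4.10 and 4.29 TPM with SRT1720 and at 3.54, 1.88 and 5.59 TPM with vehicle. Chek1, downstream of ATR, was at 2.23 ± 0.64 against 2.16 ± 0.63 TPM, and Atm at 2.15 ± 0.34 against 1.99 ± 0.33 TPM. Atr, below the filter, was at 0.647 ± 0.07 against 0.566 ± 0.17 TPM.

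Of 22 further signalling genes 16 were tested, and 11 were above 0 (68.8%, beside 54.8% of all tested genes). Among the 16, 4 stood at an unadjusted p under 0.05, all higher (25.0%, beside 7.86% of all tested genes). Tipin, a fork protection protein needed for ATR signalling, was at 12.8, 14.4 and 10.2 TPM with SRT1720 and at 7.94, 6.11 and 7.01 TPM with vehicle, a log2 fold change of 0.74 (adjusted p = 0.289 by limma). Rnf168, the ubiquitin ligase that marks chromatin at breaks, was at 3.83 ± 0.40 against 2.42 ± 0.22 TPM (adjusted p = 0.295 by limma), and the groups overlapped in neither gene. Trp53bp1, a reader of that mark, was at 0.806 ± 0.14 against 0.931 ± 0.17 TPM below the filter, and Topbp1, an activator of ATR, at 7.94 ± 0.85 against 6.54 ± 1.46 TPM.

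Over all 128 further repair genes, a list also chosen with earlier results of these data known, 78 were tested. The log2 fold change was above 0 in 53 (67.9%), with a median of 0.11. At an unadjusted p under 0.05 stood 13, all higher (16.7%, beside 7.86% of all tested genes), and 0 passed adjustment by limma. In 22 (28.2%) every SRT1720 library lay above every Vehicle library, beside 12.1% of all genes. The 1 gene below without overlap, named for its value, was Mdc1, an adaptor at break sites, with a log2 fold change of −0.19.

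Levels depended on how gene length was counted. Recovered lengths exceeded the merged exons of the GENCODE annotation in 33 of the 37 genes, with a ratio from 0.31 to 2.57 and a median of 1.56. In reads per kilobase of merged exons, per 1000000 recovered reads, Msh6 was highest at 44.6, followed by Rad50 at 20.3, Chek2 at 17.9, Xrcc6 at 17.7 and Nbn at 13.1. Brca2 was lowest at 1.88, below Atr at 2.16, Palb2 at 2.64 and Pms2 at 2.65. On this scale Rbbp8, the gene with the second highest deposited level, was at 5.23, below Brca1 at 10.8, Xrcc5 at 11.7 and Mre11a at 11.1. Rbbp8 is the gene with the ratio of 0.31, a recovered length of 3867 against 12521 merged exon bases. Its place thus depends on which length is used, and which of them applies was not tested.

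**Figure D5:**
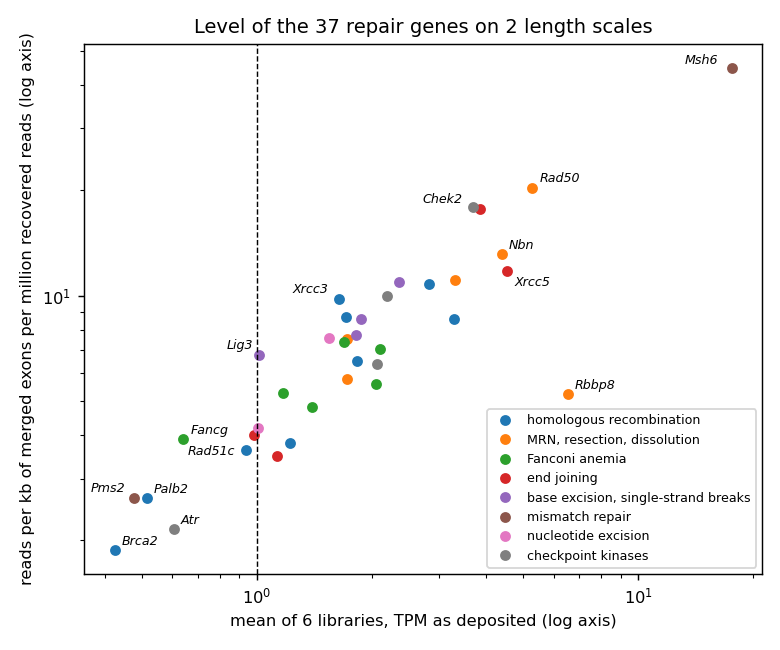
Level of each of the 37 repair genes as the mean deposited TPM of 6 libraries (x axis, log) and as reads per kilobase of merged exons per 1000000 recovered reads (y axis, log), with the dashed line at the filter of 1 TPM. Msh6 is highest on both axes at 44.6 on the y axis, and Brca2 is lowest on both.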

How the data were processed

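Bulk RNA-seq of 6 libraries was deposited by the authors as 1 table of TPM values, the unit its name gives, whose columns sum to 161231 to 171577. The submitters' processing notes name STAR 2.6.0 and the build GRCm38. Not given in the sources used here are the counting program, the annotation and the length definition. Symbols and positions came from GENCODE M21, which matched 51719 of 51912 IDs.

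The 9287 genes whose mean reached 1 TPM were tested with limma 3.58.1 in R 4.3.3 (lmFit, eBayes with trend) on log2(TPM + 1), adjusted over all of them by Benjamini-Hochberg at 0.05. Permutation tests over libraries were exact and two-sided. Groups came from the sample titles. The median chi-square over its expectation between libraries of a group was 26.1 to 55.1, so each counted once.

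Whole reads were recovered for 9286 of the 9287 genes (tolerance 0.01 read). Recovered lengths exceeded merged exons in 69.3% of tested genes, so TPM levels and the filter depend on a length of unknown definition. Of 7443 tested genes with several overlapping transcripts, 946 had a length equal to the sum of all transcripts and 32 one equal to the merged exons. Recovery and the test were tested on simulated data.

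The members and lists were chosen with earlier results of these data known. Every member may be named; of the other lists, up to 2 genes a role with the smallest unadjusted p, and the partners Fancm, Parp1, Lig1, Xpc, Topbp1 and Trp53bp1; some genes this rule names are not reported here. Promoter windows are RefSeq's. Alternatives were other pseudocounts, filters, scalings, library weights, voom, a replicate block and libraries left out. Python 3.11.15, pandas 2.3.3, numpy 2.4.6, scipy 1.17.1 and matplotlib 3.10.9 were used.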

Additional observations from a re-analysis of the deposited data

How the results depend on the processing

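In all 19 alternatives 0 members and 0 genes passed adjustment. Xrcc5 stayed at an unadjusted p under 0.05 in 18 of 18 alternatives that tested it (log2 fold change 0.67 to 1.14), Exo1 in 13, and Rad51ap1 and Xrcc1 in 12 each. Members at that level numbered 4, against 0 at a mean of at least 5 TPM (only 3 members tested), 6 with library weights, 1 without both SRT1720 1 and Vehicle 2, 7 without both SRT1720 3 and Vehicle 3, and 1 to 7 with 1 library left out (1 without Vehicle 2, 2 without SRT1720 1, SRT1720 2 or Vehicle 1). Among all tested genes 7.86% were higher at that level, against 8.7% at that filter and 13% with library weights. With 1 library left out this share was 3.4% to 7.6%. It was 6% without both SRT1720 1 and Vehicle 2, and 4.6% without both SRT1720 3 and Vehicle 3. Members without overlap numbered 5, against 0, 9 and 18 at that filter and in those 2 omissions (13.9%, 23.0% and 24.1% of all genes were higher without overlap there), and 6 to 17 with 1 library left out (14.1% to 19.5% of all genes). The median log2 fold change of 0.14 became 0.28 without both SRT1720 3 and Vehicle 3, and 0.13 to 0.30 with 1 library left out. The other repair genes at an unadjusted p under 0.05 numbered 13, against 22 with library weights, 3 at a mean of at least 5 TPM, 25 with voom at 20 reads (added after seeing the data), 8 in each double omission, and 5 to 12 with 1 library left out. The shares of all tested genes given above stand beside these counts too, and in that voom fit 6.3% were higher. Genes at an unadjusted p under 0.05 numbered 1153 in all, 2056 with library weights and 523 without SRT1720 2. 

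Replicate numbers did not match alike libraries throughout. Deviations from the group means of same-numbered libraries correlate at −0.20, −0.26 and 0.79 for numbers 1, 2 and 3. Across numbers the values are 0.72 for SRT1720 1 with Vehicle 2 and 0.68 for SRT1720 2 with Vehicle 1; no label pairs these libraries, and no such pairing was fitted. With the replicate block 3 of 30 members were at an unadjusted p under 0.05, all higher, where 7.4% of all tested genes were higher. In all, 1133 of 9287 genes stood at that level in either direction, and the median of the members was 0.14. That block joins same-numbered libraries, so it is no check of the fit without pairs.

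Of the members 14 kept their sign throughout, and 48 of 536 values, over 16 genes, reversed; the cause was not tested. With 1 library left out, log2 fold changes ran from −0.0176 to 0.14 (Atm), −0.053 to 0.115 (Bard1), −0.019 to 0.197 (Blm), −0.0335 to 0.302 (Brip1), −0.123 to 0.183 (Chek1), −0.225 to 0.371 (Chek2), −0.12 to 0.0926 (Lig3), −0.0494 to 0.134 (Mre11a), −0.178 to 0.391 (Msh6), −0.0545 to 0.0578 (Prkdc), −0.0907 to 0.188 (Ung), −0.0419 to 0.286 (Xpa), −0.207 to 0.11 (Xrcc3) and −0.0334 to 0.181 (Xrcc6). Without both SRT1720 1 and Vehicle 2 the values were −0.044 for Bard1, −0.0742 for Chek2, −0.0073 for Fancd2, 0.0983 for Lig3, −0.0454 for Mre11a and −0.0471 for Rbbp8. Without both SRT1720 3 and Vehicle 3 they were 0.0368 for Prkdc, −0.0303 for Ung and 0.0515 for Xrcc3. Library weights gave −0.0112 for Bard1, 0.0643 for Lig3, 0.042 for Prkdc and −0.0143 for Ung. Median-of-ratios scaling gave −0.0368 for Bard1, −0.0048 for Chek1 and −0.0126 for Ung, and quantile normalization −0.0379 for Bard1. Lig3 was at 0.0218 with columns rescaled to 1000000, 0.0029 at a pseudocount of 0.1, and 0.0006 and 0.0018 in the voom fits.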

Other observations

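The translesion synthesis and direct reversal genes, which copy past or undo base damage, were the repair group with most values below 0. Of 12 listed, 7 were tested and 6 had log2 fold changes below 0, with a median of −0.24. The share above 0 was 14.3%, against 54.8% of all tested genes. Groups overlapped in each, and 0 were at an unadjusted p under 0.05. This role was picked out by these same values, so its signs are no separate result. Mad2l2, a subunit of polymerase zeta that also acts in end protection, had means of 2.12 ± 0.66 TPM after SRT1720 and 2.896 ± 0.59 TPM after vehicle (SD, n = 3). Ube2b, a ubiquitin-conjugating enzyme that works with RAD18, was at 13.9 ± 2.20 against 17.1 ± 2.36 TPM.

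Genes below the filter also entered a fit of recovered reads at a mean of at least 20 reads, chosen after seeing the data. It tested all 37 members, of which 34 were above 0, where 53.6% of the 13814 genes were. At an unadjusted p under 0.05 stood 5, all higher, namely Xrcc5, Exo1, Rad51ap1, Xrcc1 and Brca2, where 6.3% of all genes were higher at that level.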
